A study of Mus musculus with 18 samples.

Results

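The 43 genes described here build and maintain the outer segment and connecting cilium of photoreceptors, set photoreceptor identity, or are otherwise known from inherited retinal disease. They were chosen by symbol from the 22558 genes of the deposited tables, with earlier results of these data known, and all 43 were found. RNA was sequenced from retina and from RPE/choroid (the retinal pigment epithelium with the vascular layer behind it) of mice aged 30 days, on a mixed 129SV and C57BL/6 background. The genotypes were wild type, Abca4-/- (knockout) and a homozygous knock-in that carries the substitutions L541P and A1038V in Abca4, with 3 libraries for each genotype in each tissue. The labels name no treatment. They also leave unsaid whether each library is another animal, so every p-value rests on the spread among these libraries, which may be technical. Libraries are called by genotype and by the number 0 to 2 that the deposited tables give them.

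The photoreceptor outer segment is a modified cilium filled with stacked membrane discs, which are renewed throughout life and shed to the pigment epithelium. Disc rims are shaped by tetraspanins, proteins and membrane travel through the connecting cilium, and a small set of transcription factors holds rods and cones in their fate. Abca4 encodes a transporter of the disc rim that clears retinoid adducts, and loss of its function in people causes Stargardt macular dystrophy.

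Assigned fragments per library came to between 11553291 and 23579152 for retina and to between 14621635 and 30048059 for RPE/choroid. Abca4 itself had 282, 251 and 228 FPKM (fragments scaled for transcript length and for depth) in the wild-type retinas, 81.8, 80.3 and 73.9 in the knockout retinas and 233, 197 and 182 in the knock-in retinas. By Xist and Ddx3y, 2 of 3 wild-type, 1 of 3 knockout and 0 of 3 knock-in retinal libraries were male. Summed over 17 lens genes, retinal libraries had 78.1 to 1105 FPKM in wild type, 718 to 16792 in knockout and 589 to 8674 in knock-in, while the sum over 14 rod genes was 28330 to 29127, 26914 to 29571 and 26317 to 27956. In RPE/choroid the rod sum was 244 to 3084 FPKM in wild type, 385 to 707 in knockout and 346 to 509 in knock-in. The highest of these values belongs to wild-type library 2, which stands apart for rod genes, so results that rest on it are given also without it. That library was also the highest RPE/choroid library for 10 cone genes (128 FPKM, others 16.3 to 34.2). The same held for 7 amacrine and horizontal cell genes (88.7, others 40.4 to 52.8) and 8 ganglion cell genes (74.3, others 39.8 to 56.7).

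Levels of different genes are compared as FPKM, which corrects for length. Values of the same gene in different libraries are given as scaled CPM, apart from Abca4, Gfap, marker sums and transcript models. Scaled CPM are the counts of a gene set relative to the total assigned fragments of its library (CPM) after TMM scaling. They are used because FPKM carried a difference between libraries that was smaller in the counts. Among 40 of the 43 genes with a mean of at least 1 FPKM in retina, the ratio of FPKM to scaled CPM was outside the range of the other 6 libraries in all 3 libraries numbered 2 for 36. Relative to those 6 libraries this ratio ranged from 0.734 for Impdh1 to 1.65 for Cep290. On the FPKM scale, the libraries numbered 2 of retina stood apart from the other 6 for 18 of the 40 genes, against 32.6% of 12858 genes. On the scaled CPM scale they stood apart for 3 of the 40, against 6.28%. Retinal libraries numbered 0 stood apart on that scale for 5.41% of all genes and those numbered 1 for 0.925%.

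In wild-type retina most of the 43 genes were strongly expressed. Their mean levels lay at percentile 33.9 to 99.96 of all genes, 38 of them had at least 10 FPKM, 17 had at least 100 and 4 had at least 1000. Among genes of disc and outer segment structure, Prph2 and Rom1, the tetraspanins of the disc rim, led with 2330 ± 250 and 1692 ± 240 FPKM (mean ± SD, n = 3, as throughout). Rp1, a microtubule protein of the axoneme, had 566 ± 96.1 FPKM and its relative Rp1l1 had 136 ± 16.2. Prom1, a pentaspan protein of nascent discs, had 331 ± 44.3 FPKM, and Cdhr1, the photoreceptor cadherin at the base of the outer segment, had 247 ± 6.18. Fscn2, an actin-bundling protein, was the lowest of this role with 65.3 ± 8.67 FPKM. Prom1 and Cdhr1 differed by more than these SDs, as did Prph2 and Rom1.

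**Figure D1:**
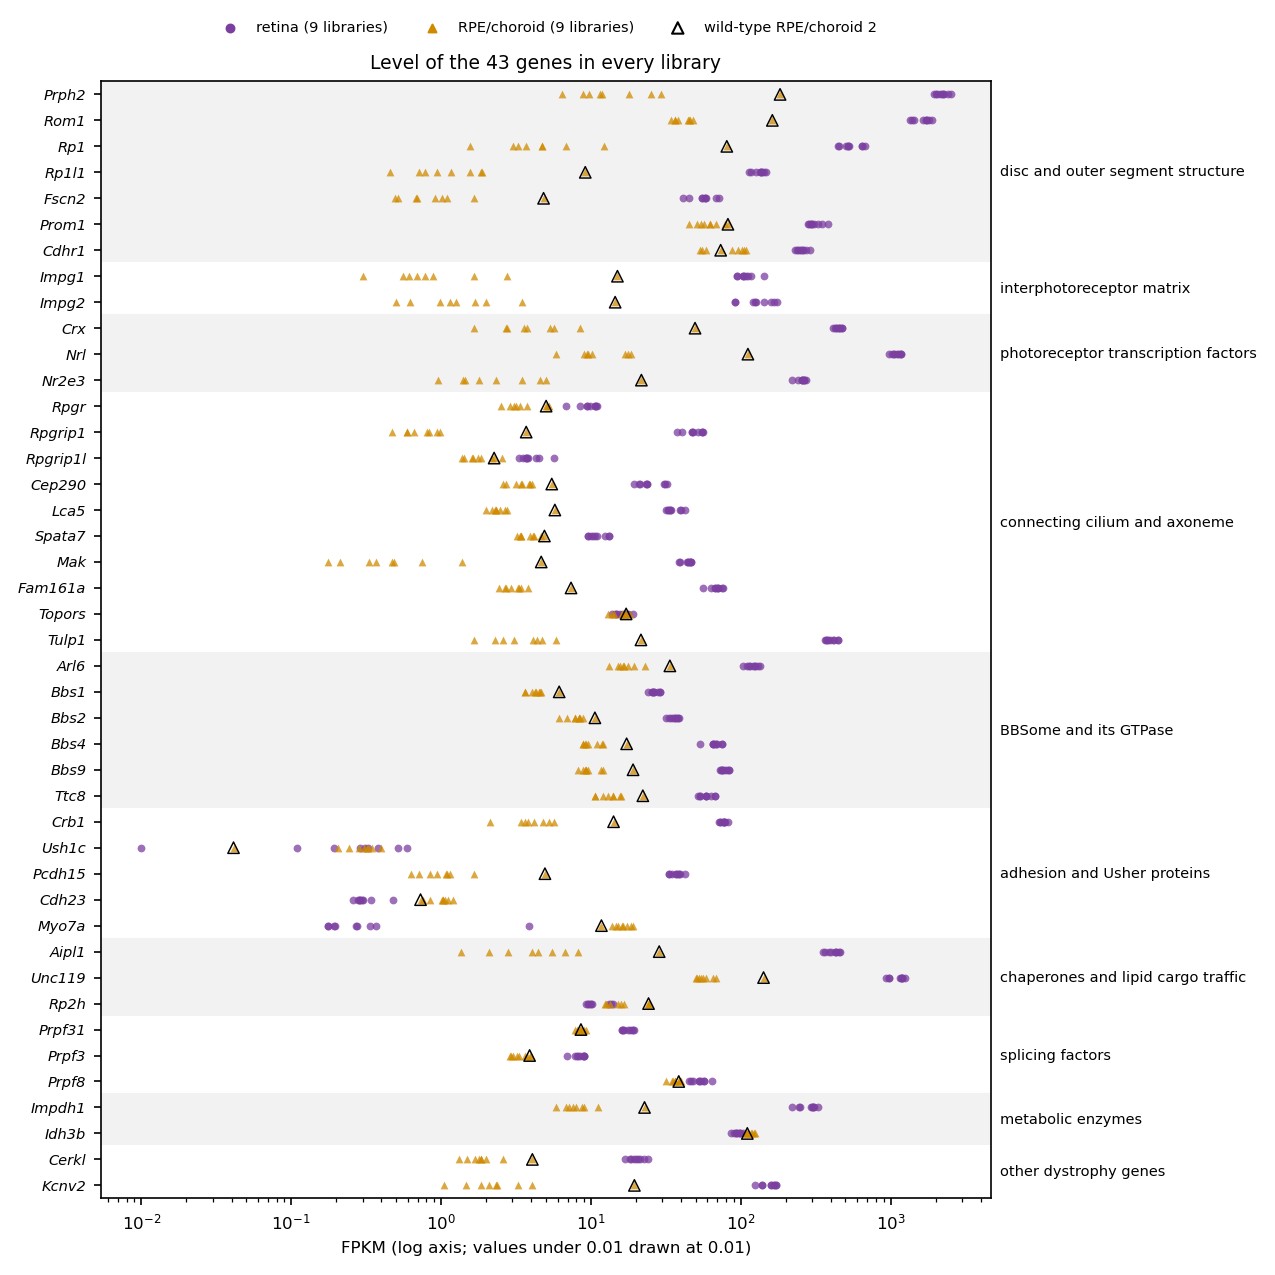
FPKM of the 43 genes (log axis) in each of 9 retinal libraries (circles) and 9 RPE/choroid libraries (triangles), grouped by role, with wild-type RPE/choroid library 2 outlined in black. Prph2 and Rom1 lie highest in retina, Myo7a lies higher in RPE/choroid, and the outlined triangle lies to the right of the other triangles for photoreceptor genes such as Rp1 and Crx.

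The interphotoreceptor matrix proteoglycans Impg1 and Impg2 had 117 ± 22.6 and 101 ± 16.6 FPKM in wild-type retina, a difference within their spread. Among the transcription factors, Nrl, which specifies rods, had 1147 ± 34.5 FPKM, Crx, the homeodomain factor of rods and cones, had 459 ± 16.2, and Nr2e3, the nuclear receptor that represses cone genes in rods, had 264 ± 0.654. In the connecting cilium and axoneme group, Tulp1, which carries proteins to the outer segment, was highest with 402 ± 38.3 FPKM. Fam161a, a microtubule protein, had 70.9 ± 3.85, Rpgrip1, which anchors Rpgr, had 49.3 ± 2.51, and the kinase Mak had 45.7 ± 0.866. Rpgr itself, the GTPase regulator whose gene is X-linked, had 10.2 ± 0.685 FPKM, and Rpgrip1l, a transition zone protein, had 3.67 ± 0.139.

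The BBSome, a coat that moves membrane proteins through cilia, was represented by Bbs1, Bbs2, Bbs4, Bbs9, Ttc8 and by Arl6, the GTPase that recruits it. Arl6 was the highest of these with 121 ± 8.17 FPKM in wild-type retina, and Bbs1 the lowest with 27.0 ± 2.51. Of the adhesion and Usher genes, Crb1, the apical polarity protein, had 76.7 ± 4.88 FPKM and Pcdh15 had 38.2 ± 1.23. Cdh23, Myo7a and Ush1c, which with Pcdh15 form the Usher complex of hair cells, had 0.290 ± 0.00534, 0.214 ± 0.0508 and 0.190 ± 0.189 FPKM, the lowest levels of the 43. Ush1c had a count of 0 in wild-type retinal library 2, which allows up to 3 fragments there. Unc119, a carrier of acylated cargo, had 1130 ± 170 FPKM, the chaperone Aipl1 408 ± 37.3 and Rp2h 11.2 ± 2.38. The splicing factor Prpf8 had 52.4 ± 6.15 FPKM, Prpf31 17.6 ± 0.809 and Prpf3 8.32 ± 1.20. Impdh1, of guanine nucleotide synthesis, had 285 ± 58.1, and Idh3b, of the citric acid cycle, 95.9 ± 7.06. Kcnv2, a modulatory potassium channel subunit of photoreceptors, had 163 ± 4.38 FPKM and the ceramide kinase-like gene Cerkl 20.7 ± 2.21.

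Promoters of several of the genes hold the hexamer TAATCC, a core letter string bound by homeodomain factors of the Crx kind, which was searched on both strands (GGATTA on the other) in the 250 bases before each RefSeq start (GRCm38.p6). Windows matched 40 of the 43 genes by symbol, all but Kcnv2, Rp1 and Rp1l1, with Rp2 used for Rp2h. TAATCC stood in 7 of 51 windows of these genes (13.7%), against 6.25% of 32851 windows of all genes. The core TGCTGA, known from sites of Nrl and its kin and read as TCAGCA on the other strand, stood in 6 of 51 (11.8%), against 16.1%. The stretches below, each of 30 bases on the strand of the gene with the hexamer in capitals, are shown for the transcription factor Crx, for Aipl1 and Mak, whose values in RPE/choroid followed those of rod genes, and for Rpgrip1, which differed between genotypes. They are chr7:15879959-15879988 and chr7:15880032-15880061 (minus strand, Crx, matches 21 and 94 bases upstream), chr11:72037545-72037574 (minus, Aipl1, 53 bases), chr13:41070666-41070695 (minus, Mak, 218 bases) and chr14:52110863-52110892 (plus, Rpgrip1, 28 bases).
Crx, near: ccaccttccctgGGATTAcccttccagatc
Crx, far: gtgggggtggtgGGATTAagcagacggtgc
Aipl1: tcccctctggtgGGATTAtctaggcttgca
Mak: cccacaaaacagTAATCCcaccttgaacag
Rpgrip1: gctaaaaggcctGGATTAgtgtctcctcta
Another window of Mak, at chr13:41079707-41079956, held no TAATCC. The window of Aipl1 overlapped no annotated exon, while those of Crx and Rpgrip1 and the matching window of Mak did. A letter match is a description of these windows and does not show binding.

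In retina, knockout was compared with wild type to ask whether loss of Abca4 alters genes of photoreceptor structure at an age of 30 days. Of the 43 genes, 2 were called at an adjusted p under 0.05 (edgeR quasi-likelihood test with Benjamini-Hochberg adjustment over 14699 genes, as throughout), Kcnv2 and Fscn2, and both fell. Over all genes, 0.98% were called and 0.497% were called lower. At an unadjusted p under 0.05 there were 10 of the 43, 1 higher and 9 lower, against 12.5% of all genes. The median log2 difference was -0.05, against -0.003 over all genes, 35 of the 43 lay within 0.2 of 0, and 31 lay below it. Scaled CPM of knockout and wild type did not overlap for 10 genes, 3 higher and 7 lower, which is 23.3% against 17.9% of all genes.

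Kcnv2 had 876, 841 and 849 scaled CPM in the wild-type retinas, 737, 655 and 695 in the knockout retinas and 885, 899 and 851 in the knock-in retinas. All knockout libraries lay below all others, while knock-in and wild type overlapped. The log2 difference of knockout from wild type was -0.30 (SE 0.059, adjusted p = 0.0289), that of knock-in from wild type was 0.04 (adjusted p = 0.903), and that of knock-in from knockout was 0.34 (SE 0.059, adjusted p = 0.0101). Fscn2 had 79.7, 80.3 and 84.6 scaled CPM in wild type, 66.7, 67.2 and 67.3 in knockout and 66.4, 69.3 and 60.4 in knock-in. Every wild-type library lay above every library of the other genotypes. The log2 difference was -0.28 in knockout (SE 0.061, adjusted p = 0.0466) and -0.32 in knock-in (SE 0.061, adjusted p = 0.0504). In the deposited tables Kcnv2 lies at chr19:27397108-27411669 and Fscn2 at chr11:120222847-120229487 (mm9).

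These calls lie close to the threshold. Over the 9 fits that each leave out 1 retinal library, the adjusted p of Kcnv2 in knockout against wild type ran from 0.0138 to 0.165 and was above 0.05 without any of the wild-type libraries or without knockout 1 or 2. That of Fscn2 ran from 0.0370 to 0.176 and was above 0.05 without any wild-type or knockout library or without knock-in 1. With a sex term both calls remained (Kcnv2 adjusted p = 0.0323, Fscn2 adjusted p = 0.0461), and with a term for lens content both had an adjusted p of 0.254. Neither was called by limma on log2(FPKM + 1), with adjusted p of 0.224 and 0.766, but both were by limma on log2(scaled CPM + 1), an alternative chosen after seeing the data, with 0.0198 and 0.0438. None of the 17 lens genes was called in either mutant, with a lowest adjusted p of 0.297 (edgeR) in knockout, all 17 lay above 0 in both, with a median log2 difference of 4.15 in knockout and 2.77 in knock-in, and their sums overlap between genotypes. Of the other marker lists in knockout retina, 4 of 12 genes of pigment epithelium rose (Lrat, Rgr, Rpe65 and Slc6a20a, list median 0.81, summed 341 to 355 FPKM in wild type and 305 to 404 in knockout), as did Clu of 10 Mueller glia genes and Oca2 of 7 pigment genes tested. Alas2 of 4 erythroid genes tested fell, and 0 of 13 rod genes tested and 0 of 10 cone genes were called. In summed FPKM, all knockout retinas lay above all wild-type retinas for cone genes (1234 to 1356 against 1092 to 1142). The same held for Mueller glia genes (2817 to 3179 against 2530 to 2688) and pigment genes (25.9 to 32.7 against 11.2 to 22.1). For erythroid genes they lay below (11.6 to 16.2 against 35.4 to 46.9), and the sums of the other lists overlapped. The part of these lists in the calls of Kcnv2 and Fscn2 was not tested beyond the lens term.

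Among the other disc genes, Prph2 had 5265, 5245 and 5382 scaled CPM in wild-type retina, 4720, 4903 and 5081 in knockout and 4694, 5001 and 4970 in knock-in. The wild-type libraries were all highest, by a small margin, with log2 differences of -0.11 (adjusted p = 0.395) and -0.12 (adjusted p = 0.562). Prom1 had 1291, 1222 and 1311 in wild type against 1216, 1138 and 1199 in knockout and 1205, 1148 and 1118 in knock-in, again without overlap, and was not called (adjusted p = 0.465 and 0.516). Rom1, Rp1, Rp1l1 and Cdhr1 overlapped between all pairs of genotypes, with log2 differences from wild type of -0.17 to 0.08.

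Of the matrix genes, Impg2 had 816, 762 and 848 scaled CPM in wild-type retina, 1357, 1036 and 1141 in knockout and 1036, 1436 and 997 in knock-in. All 6 mutant libraries lay above all wild-type libraries, with wide spread within the mutants. The log2 differences were 0.54 in knockout (SE 0.149, adjusted p = 0.172) and 0.52 in knock-in (adjusted p = 0.347), and neither passed the test. In knockout it passed when only the compared libraries were fitted (adjusted p = 0.0192) or without knock-in 1 (0.0104). In the authors' deposited table, Impg2 has a q-value of 0.00791 for knockout and 0.0244 for knock-in. Impg1 had 467, 435 and 523 in wild type, 467, 460 and 432 in knockout and 415, 394 and 406 in knock-in, where the knock-in libraries lay below all others. Its log2 difference in knock-in was -0.23 (adjusted p = 0.278).

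**Figure D2:**
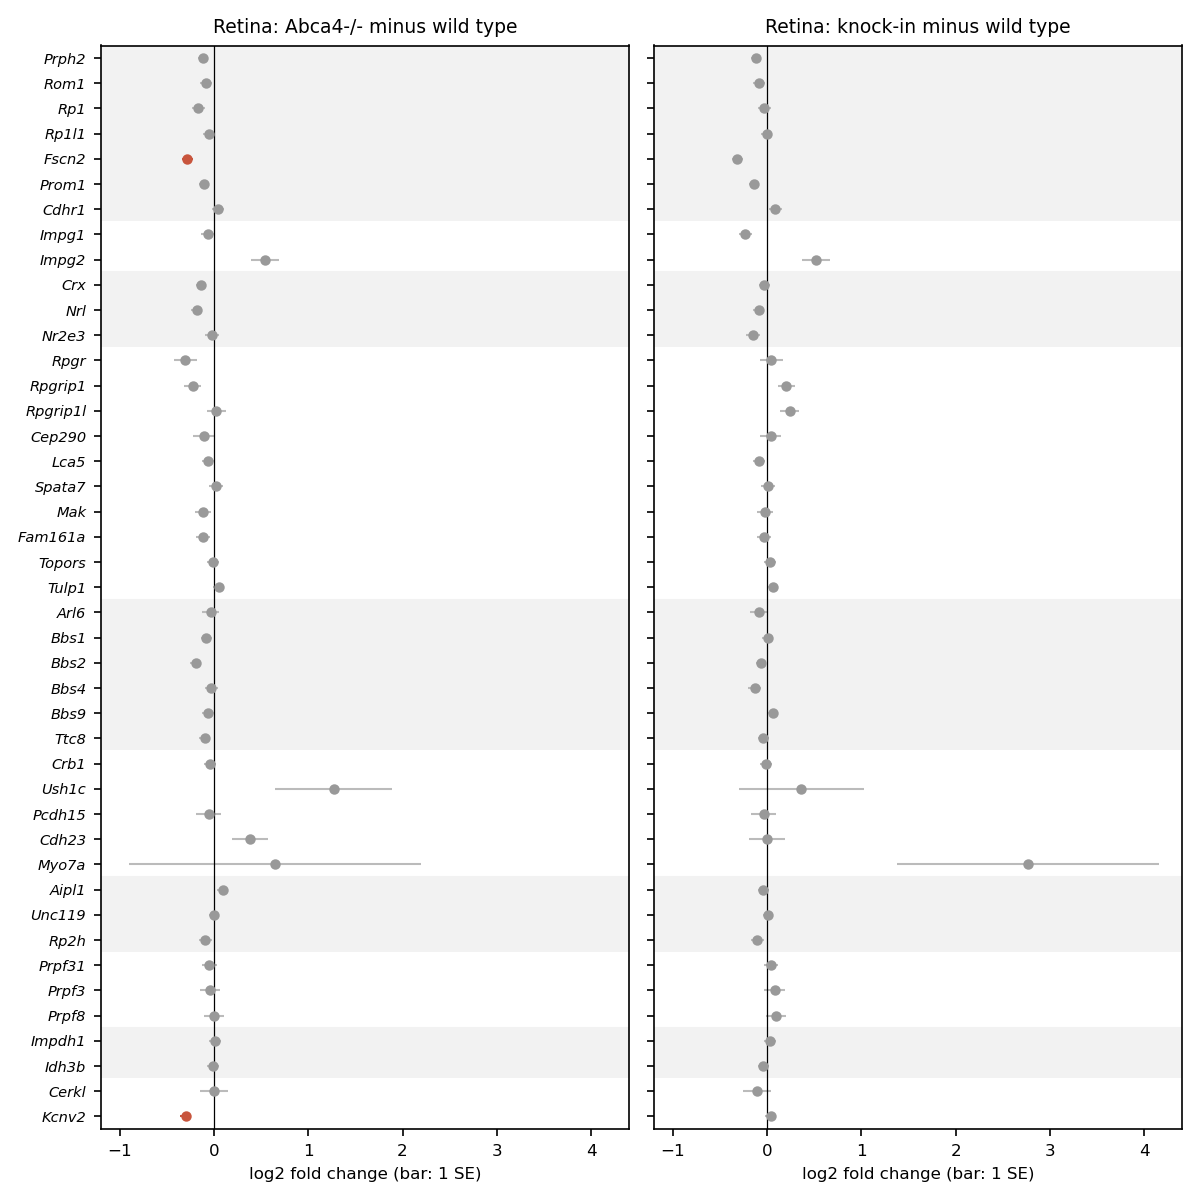
Log2 fold change of each gene in knockout (left) and knock-in (right) retina against wild type, with bars of 1 SE, ordered by role, and genes called at an adjusted p under 0.05 in colour. Kcnv2 and Fscn2 are called in knockout, none in knock-in, most points lie within 0.2 of 0, and Myo7a and Ush1c have the widest bars.

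Nrl, Crx and Nr2e3 were not called in any comparison of retinas. Crx had 1408, 1349 and 1393 scaled CPM in wild type, 1245, 1198 and 1324 in knockout and 1322, 1378 and 1366 in knock-in. The knockout libraries lay below the wild-type ones (log2 -0.14, adjusted p = 0.320), and the knock-in libraries overlapped them. Nrl was likewise lower in all knockout libraries (log2 -0.18, adjusted p = 0.224), and Nr2e3 in all knock-in libraries (log2 -0.15, adjusted p = 0.627).

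Of the 10 genes of connecting cilium and axoneme, 0 were called against wild type. Rpgrip1 had 306, 290 and 245 scaled CPM in wild type, 235, 232 and 252 in knockout and 358, 319 and 290 in knock-in. Knock-in libraries lay above all knockout libraries, and wild type lay between and overlapped both. Between knock-in and knockout the log2 difference was 0.43 (SE 0.090, adjusted p = 0.0351), while the differences from wild type were -0.23 in knockout (adjusted p = 0.316) and 0.20 in knock-in (adjusted p = 0.562). Its adjusted p between the mutants ran from 0.00747 to 0.15 over the fits without 1 library and was above 0.05 without wild-type 1, any knockout library or knock-in 0 or 1. Rpgr had 41.7, 40.7 and 31.8 in wild type, 28.9, 32.4 and 31.3 in knockout and 46.1, 36.9 and 34.9 in knock-in. Its log2 difference of -0.30 in knockout (SE 0.120, adjusted p = 0.319) was the lowest among the 43 in that comparison, the groups overlapped, and it was called with the term for lens content. Rpgrip1 lies at chr14:52730577-52816914 (mm9).

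**Figure D3:**
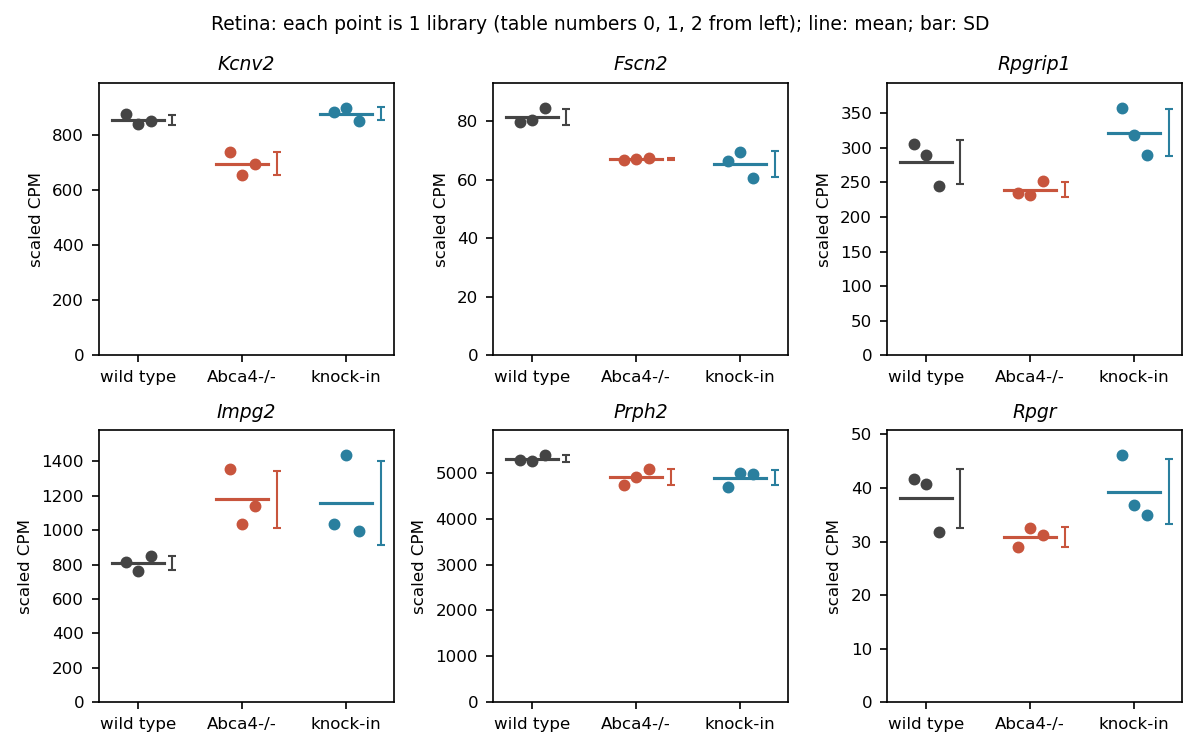
Scaled CPM of 6 genes in each retinal library, by genotype, with the mean (line) and SD (bar) of 3 libraries. Kcnv2 is low in knockout, Fscn2 is low in both mutants, Rpgrip1 differs between knockout and knock-in, Impg2 is higher and more variable in both mutants, and Prph2 and Rpgr were not called.

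Of the BBSome group, Bbs2 had 104, 100 and 102 scaled CPM in wild type and 92.1, 85.2 and 91.2 in knockout, without overlap (log2 -0.19, SE 0.057, adjusted p = 0.151). Its knock-in values of 102, 98.4 and 92.7 overlapped wild type. Arl6, Bbs1, Bbs4, Bbs9 and Ttc8 had log2 differences from wild type of -0.13 to 0.06 in both mutants.

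Crb1 and Pcdh15 overlapped between the genotypes. Crb1, the first of the adhesion and Usher group, had 406, 363 and 363 scaled CPM in wild type, 385, 361 and 356 in knockout and 386, 370 and 365 in knock-in. Myo7a, a myosin of pigment epithelium and hair cells, had the highest log2 difference of the 43 in retina, 2.77 in knock-in (SE 1.39, adjusted p = 0.667), and it rests on 1 library. Its scaled CPM were 1.34, 1.84 and 1.38 in wild type, 1.92, 2.32 and 3.02 in knockout and 28.2, 1.34 and 1.40 in knock-in, and without knock-in 0 the log2 difference was -0.15. Ush1c had counts of 7, 10 and 0 in wild type, 22, 25 and 9 in knockout and 17, 5 and 13 in knock-in. Its log2 difference of -0.91 between knock-in and knockout (adjusted p = 0.575) was the lowest of the 43 in retina.

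Aipl1 had 547, 540 and 584 scaled CPM in wild type and 596, 584 and 600 in knockout (log2 0.09, adjusted p = 0.529). These groups were apart only by less than the rounding shown. Knock-in values were 525, 562 and 538. The splicing factors Prpf31, Prpf3 and Prpf8 and the enzymes Impdh1 and Idh3b had log2 differences from wild type of -0.05 to 0.09 in the mutants. Prpf31 had 61.2, 56.0 and 55.9 in wild type, 54.5, 51.7 and 61.5 in knockout and 54.3, 61.3 and 62.3 in knock-in, and Impdh1 had 611, 600 and 592, then 587, 578 and 652, then 597, 604 and 641. Cerkl, with 36.6, 36.2 and 29.0 in wild type, overlapped between the genotypes.

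Comparing knock-in with wild-type retina, edgeR called 0 of the 43, against 0.265% of all genes, with 7 at an unadjusted p under 0.05 (3 higher, 4 lower) against 8.5%. DESeq2 called 1 and limma on log2(scaled CPM + 1) called 1, in each case Fscn2, and limma on log2(FPKM + 1) called 0. The median log2 difference was -0.02, and scaled CPM did not overlap for 7 genes, 1 higher and 6 lower, 16.3% against 15.3%. The 2 comparisons with wild type share their control libraries. Between knock-in and knockout, 2 of 43 were called, Kcnv2 and Rpgrip1, both higher in knock-in, against 1.26% of all genes called and 0.68% called higher. Groups did not overlap for 9 of the 43, 6 higher and 3 lower, 20.9% against 17.5% of all genes, and 7 had an unadjusted p under 0.05, against 11.7%.

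Wild-type retina was then compared with wild-type RPE/choroid, to see which of the genes belong to the retina at all. By edgeR, 37 of the 43 were higher in retina and 4 were higher in RPE/choroid, 41 in all, against 85.9% of 16222 genes called, 41.9% called higher and 44% called lower in retina. At least 2-fold and higher in retina were 21.8% of all genes. Prph2 had a log2 difference of 4.98 (SE 1.09, adjusted p = 0.000809), and 8.17 (SE 0.50) without wild-type RPE/choroid 2. The same library lowered the difference of Rp1 from 7.98 to 4.82, of Impg1 from 7.95 to 4.74, of Crx from 7.70 to 4.87 and of Kcnv2 from 7.0 to 4.58. It hardly touched Prom1 (2.49 without, 2.39 with) or Cdhr1 (2.18 and 2.05). Without it, 37 remained higher and 4 lower, and 35 were at least 2-fold higher, against 22.9% of all genes.

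The 4 genes higher in RPE/choroid were Myo7a, Cdh23, Rp2h and Idh3b. Myo7a, known from melanosome transport in pigment epithelium, had 118, 110 and 108 scaled CPM in wild-type RPE/choroid, against 1.34 to 1.84 in wild-type retina (log2 -6.25, SE 1.00, adjusted p = 5.67e-05). Cdh23 had a log2 difference of -1.75, Rp2h of -0.36 and Idh3b of -0.32. Topors, a ubiquitin and SUMO ligase, differed by 0.02 (adjusted p = 0.789) and Ush1c by -0.39 (adjusted p = 0.589), and neither passed the test. The smallest differences among genes higher in retina were 0.49 for Prpf8, 0.93 for Prpf31, 1.02 for Prpf3 and 1.13 for Rpgrip1l. The BBSome genes differed by 2.02 for Ttc8 to 2.63 for Bbs9, and by 2.26 and 3.00 for these without wild-type RPE/choroid 2. In bulk tissue, fewer cells of a type and less RNA per cell cannot be told apart.

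Within RPE/choroid, the level of each gene was set as a percentage of its mean in wild-type retina, on a scale common to all 18 libraries. For 13 rod genes the median percentage was 0.390, 0.838 and 10.2 in wild-type libraries 0, 1 and 2, 1.06, 1.68 and 2.11 in knockout and 1.54, 0.788 and 0.854 in knock-in. Of the 43 genes, 11 stayed within 2-fold of this median in all 9 libraries: Rp1, Rp1l1, Impg1, Impg2, Crx, Nrl, Nr2e3, Mak, Tulp1, Aipl1 and Kcnv2, a set chosen after its values were seen. Prph2, at 0.464 to 0.862 of the median, lay just outside. Wild-type library 2 was the highest of 9 for 34 of the 43 genes and for 13 of 13 rod genes, against 20.4% of 13712 genes. Of the windows searched above, those of 8 of these 11 genes held TAATCC in 3 of 9, in Crx, Aipl1 and Mak, and TGCTGA in 1 of 9 (11.1%, against the 16.1% of all windows).

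**Figure D4:**
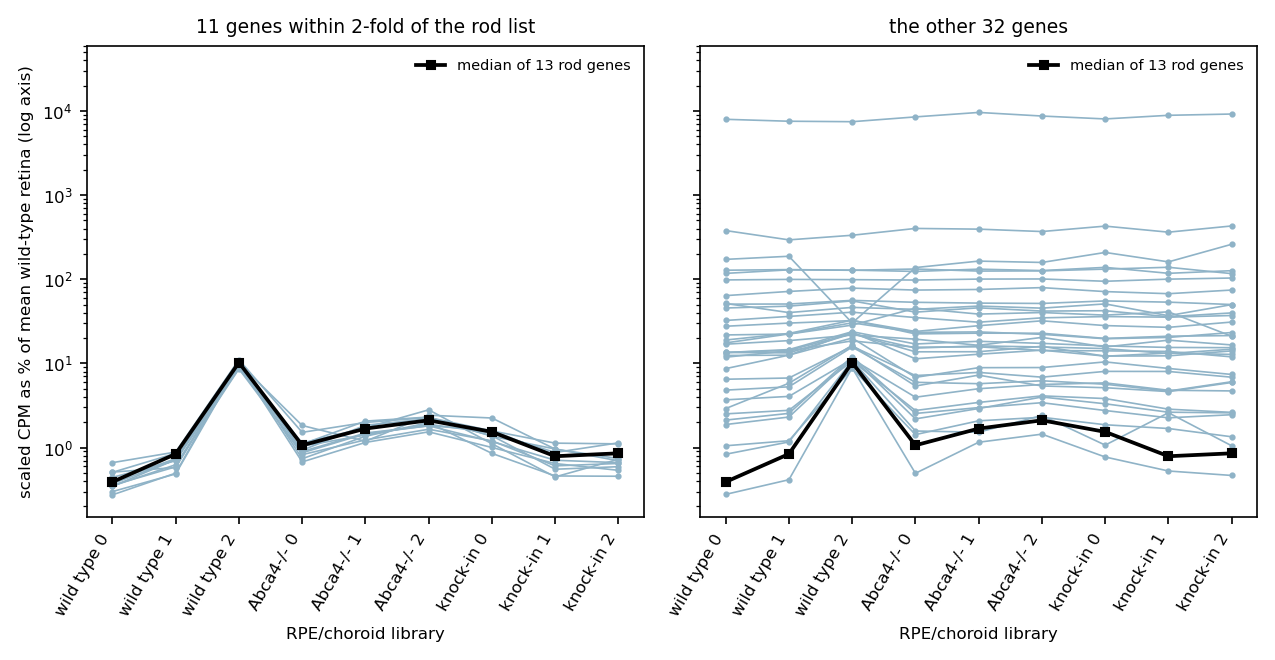
Scaled CPM in each RPE/choroid library as a percentage of the mean in wild-type retina (log axis), for the 11 genes that stayed within 2-fold of the median of 13 rod genes (left) and for the other 32 (right), with that median in black. The 11 genes and the rod median, 10.2% in wild-type library 2, peak together; among the others the lower lines also rise there, while the upper ones, with Myo7a at the top, stay near level.

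Most of the other 32 genes stood above the rod median. In wild-type library 0, 24 of the 43 genes were over 10 times that median, and in wild-type library 2, where the median is high, 4 were. Myo7a stood at 7961% of wild-type retina in wild-type library 0, Cdh23 at 379%, Rp2h at 128%, Idh3b at 117% and Topors at 98.2%. Prpf8 stood at 63.9%, Rpgrip1l at 51.5%, Prpf31 at 50.6% and Prpf3 at 45.5%. Cdhr1 stood at 21.8%, Prom1 at 16.9% and the BBSome genes at 12.4 to 19.0%, against 0.390% for the rod median in that library.

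Comparing knockout with wild-type RPE/choroid, edgeR called 0 of the 43, against 0.472% of all genes. There were 3 at an unadjusted p under 0.05, against 15.5%, DESeq2 called 1 (Cdhr1), and limma called 0 on FPKM and on scaled CPM. Groups did not overlap for 3 genes, 2 higher and 1 lower, 6.98% against 21.8% of all genes. Across the 43, 35 lay below 0 and 8 above with all libraries (median log2 -0.38), and 8 below and 35 above without wild-type 2 (median 0.22). Rp1 had 14.5, 23.1 and 466 scaled CPM in wild type, 32.2, 54.6 and 71.9 in knockout and 47.9, 31.1 and 25.9 in knock-in. Wild-type 2 was far above every other library, and the remaining wild-type libraries were the lowest. The 11 genes near the rod median ran from -1.66 (Rp1) to -0.90 with all libraries and from 1.00 to 1.75 without wild-type 2. Without that library 1 of the 43 was called, Kcnv2, with a log2 difference of 1.28 (adjusted p = 0.0233), against 2.97% of 15575 genes. The 11 genes, with Kcnv2 among them, were chosen for following the rod median, which is highest in that library. Their turn of sign and the call of Kcnv2 are therefore a description.

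Cdhr1 had the smallest p and the highest log2 difference of the 43 in that comparison. Its scaled CPM were 254, 255 and 324 in wild-type RPE/choroid, 519, 440 and 452 in knockout and 431, 476 and 244 in knock-in. All knockout libraries lay above all wild-type libraries, and knock-in 2 lay below them. The log2 difference of knockout from wild type was 0.76 (SE 0.23, adjusted p = 0.182) and 0.89 without wild-type 2. It was called by DESeq2 (adjusted p = 0.0108) and without knock-in 2 (0.0363). In the authors' deposited table its q-value is 0.00347 for knockout and 0.0159 for knock-in. Cdhr1 lies at chr14:37891034-37911497 (mm9). By Xist and Ddx3y, knock-in 2 is the 1 female among the 9 RPE/choroid libraries. Of 10 Mueller glia and astrocyte genes, 0 were called in knockout RPE/choroid (median log2 0.02), and their sums overlapped between genotypes. Among them, Gfap had 0.314, 0.971 and 2.21 FPKM in wild type and 12.6, 10.9 and 8.93 in knockout. Its knock-in values were 11.8, 19.2 and 0.572, so Gfap, like Cdhr1, was high in knockout and low in knock-in 2. The part of sex or of retinal or glial RNA in the level of Cdhr1 was not tested.

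Comparing knock-in with wild-type RPE/choroid, edgeR called 0 of 43 against 0.0647% of all genes, with 3 at an unadjusted p under 0.05 against 5.53%, and DESeq2 and limma called 0. Groups did not overlap for 2 genes, 4.65% against 9.84% of all genes. Prpf3, which had the smallest p, had 11.3, 11.6 and 13.3 scaled CPM in wild type, 9.89, 11.1 and 9.99 in knockout and 10.3, 8.83 and 9.82 in knock-in. Both mutants lay below wild type, with log2 differences of -0.23 in knockout and -0.32 in knock-in (adjusted p = 0.338 and 0.80), and of -0.15 and -0.24 without wild-type 2. Impg1 had the lowest difference in the tissue, -2.63 (adjusted p = 0.875), from 1.27, 2.26 and 48.0 in wild type, 3.36, 6.19 and 8.86 in knockout and 3.90, 2.12 and 2.11 in knock-in, and without wild-type 2 it was 0.59. Across the 43, 11 lay above 0 and 32 below with all libraries, and 37 above and 6 below without wild-type 2, where again 0 were called, against 0.0642% of all genes.

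Between knock-in and knockout in RPE/choroid edgeR, DESeq2 and limma called 0 of the 43, against 0.453% of all genes by edgeR, and 0 had an unadjusted p under 0.05, against 12.2%. The smallest p was that of Cdhr1 (log2 -0.29, adjusted p = 0.658). Groups did not overlap for 6 of the 43, 14% against 22% of all genes. Without wild-type 2, whose spread enters this fit, 0 were called, against 1.22%. Tests of whether the effect of a genotype differed between tissues called 0 of 43 by edgeR and by DESeq2 for knockout, with 2 at an unadjusted p under 0.05, and 0 for knock-in, with 1, against 0.136% and 0.0555% of all genes. Without wild-type RPE/choroid 2, 3 differed for knockout: Kcnv2 by 1.60 (adjusted p = 0.00299), Rpgrip1 by 0.99 (adjusted p = 0.0447) and Bbs1 by 0.40 (adjusted p = 0.0342), each with a higher difference in RPE/choroid than in retina, against 2.06% of all genes. That library was left out for its high rod genes, and all 3 genes were highest in it among RPE/choroid libraries. The rod median was likewise higher in knockout (1.06, 1.68 and 2.11%) than in wild-type 0 and 1 (0.390 and 0.838%). These 3 differences are therefore a description.

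In the authors' deposited tables, 16 of the 43 genes have a q-value under 0.05 between knockout and wild-type RPE/choroid, 15 lower in knockout and 1, Cdhr1, higher, against 2.9% of the genes tested there. For knock-in the authors' deposited table has 18, 17 lower and 1 higher, again Cdhr1, against 2.39%, and between knockout and knock-in it has 9, all higher in knockout, against 2.36%. In retina the authors' deposited table has 1 for knockout, Impg2 (3.44% of all genes), and 2 for knock-in, Impg2 and Myo7a (2.11%). Between the mutants it has 1, Myo7a (2.34%). The Myo7a difference rests on knock-in 0, with 653 fragments against 32 and 27 in knock-in 1 and 2. Kcnv2 and Fscn2 have q-values of 0.603 and 0.218 in the authors' deposited table for knockout retina. The genotype FPKM in the authors' deposited table for Kcnv2 in RPE/choroid are 7.34 in wild type and 3.22 in knockout, and the wild-type value takes in library 2.

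Transcript models were compared next, as a description with no test. Of the 43 genes, 13 have several models, and by mean share in 10 the same model led in wild-type retina and wild-type RPE/choroid. In Prom1 and Ttc8 the leading model differed. For Mak the models had at most 3.66 FPKM in RPE/choroid, and the order of its shares there rests on wild-type library 0, so it is not compared. In retina, Prom1 was carried by NM_001163585, which held 89.7 to 92.1% of its transcript FPKM, with 280, 274 and 351 in wild type, 266, 253 and 313 in knockout and 268, 256 and 294 in knock-in. NM_008935 and NM_001163584 were listed at 0 in all 9 retinal libraries. In RPE/choroid these models had 25.5 to 42.2 and 15.6 to 27.8 FPKM, and NM_001163585 had 0.870, 1.20 and 30.9 in wild type, 2.40, 3.54 and 7.42 in knockout and 3.38, 0.645 and 1.94 in knock-in. NM_001163585 thus was highest in the wild-type library that was highest for rod genes, while NM_008935 and NM_001163584 were not.

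Exons that tell these models apart are printed so that the forms can be seen. The ones shown are wholly coding, and each adds a whole number of codons. The models also differ elsewhere, and NM_008935 has 3719 and NM_001163585 3582 bases. Each sequence is on the strand of the gene, with the exon in capitals and 15 bases of the neighbouring exons of the transcript on each side in lower case (GENCODE transcripts, GRCm38). NM_008935 has an exon of 69 bases at chr5:44000777-44000845 and one of 24 bases at chr5:44001270-44001293 that NM_001163585 and NM_001163584 lack. NM_001163585 has an exon of 18 bases at chr5:44012499-44012516 and one of 27 bases at chr5:44058626-44058652 that NM_008935 and NM_001163584 lack. All lie on the minus strand. Only the exon of 18 bases belongs to 1 of the 7 deposited models that were matched to the annotation. NM_001163577, with 17.9 to 28.1 FPKM in retina, holds the other 3 exons, so those of 69 and 24 bases are not confined to models of RPE/choroid.
Prom1 NM_008935, 69 bases: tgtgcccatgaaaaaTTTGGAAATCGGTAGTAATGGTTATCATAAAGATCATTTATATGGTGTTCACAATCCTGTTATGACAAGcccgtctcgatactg
Prom1 NM_008935, 24 bases: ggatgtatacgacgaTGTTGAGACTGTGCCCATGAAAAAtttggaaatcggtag
Prom1 NM_001163585, 18 bases: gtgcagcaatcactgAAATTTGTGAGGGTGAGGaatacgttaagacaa
Prom1 NM_001163585, 27 bases: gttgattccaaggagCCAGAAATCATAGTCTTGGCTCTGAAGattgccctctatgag
Ttc8 NM_198311, 30 bases: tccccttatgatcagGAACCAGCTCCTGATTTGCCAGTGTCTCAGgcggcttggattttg
The exon of Ttc8 lies at chr12:98937120-98937149 on the plus strand, in NM_198311 and not in NM_029553.

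In Ttc8, a BBSome subunit, the model that led in RPE/choroid was, unlike those of Prom1, also present in retina. In retina NM_198311 held 70.0 to 80.9% of its transcript FPKM, with 36.8 to 51.6 FPKM over the 9 libraries, and NM_029553 had 12.2 to 19.1. In RPE/choroid NM_029553 had 9.82 to 17.4 FPKM. NM_198311 had 0, 0.214 and 4.86 in wild type, 1.1, 0 and 0.330 in knockout and 0.871, 1.06 and 0 in knock-in. Its highest RPE/choroid value was again in wild-type library 2. No genotype of retina lacked overlap with the others for either model of Ttc8.

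**Figure D5:**
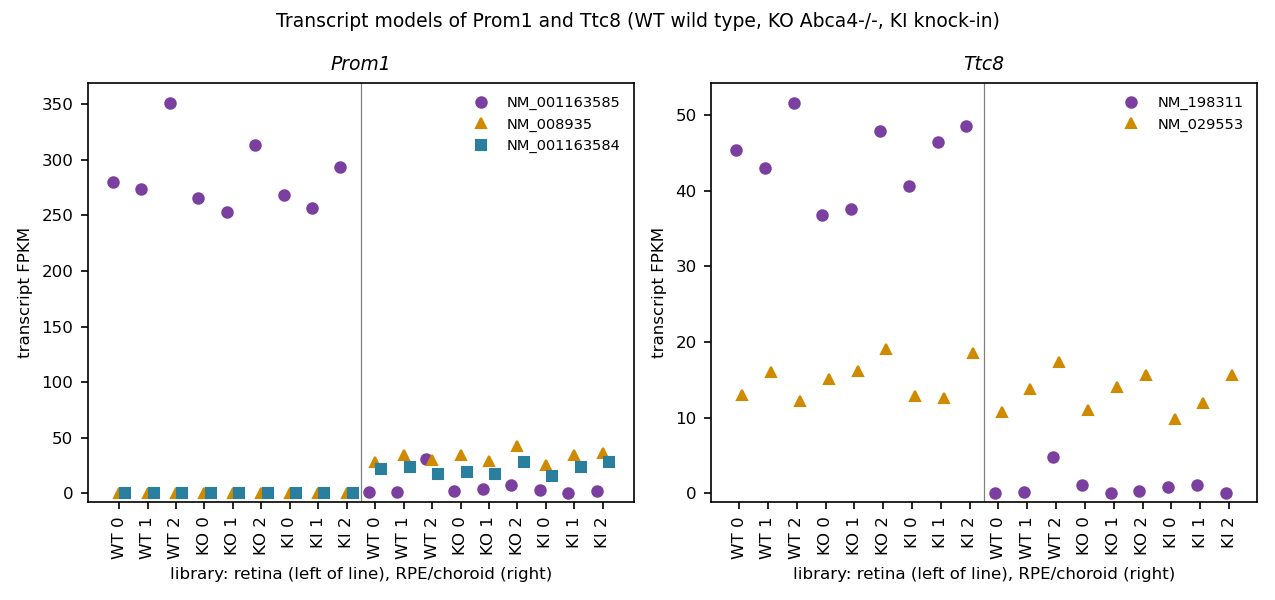
FPKM of 3 transcript models of Prom1 and 2 of Ttc8 in each of 18 libraries, retina left of the grey line and RPE/choroid right of it. NM_001163585 and NM_198311 stand out in retina, and in RPE/choroid they are highest in wild-type library 2, at 30.9 and 4.86 FPKM.

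Other genes of retinal dystrophy, from a list of 46 of which 44 were in the tables, gave 2 calls in knockout retina, both higher than wild type, against 0.98% of all genes. There were 0 between knock-in and wild type, against 0.265%, and 4 between knock-in and knockout, against 1.26%. Bbs7, a further BBSome subunit, had 107 ± 7.31 scaled CPM in wild type and 166 ± 19.6 in knockout (log2 0.64, SE 0.083, adjusted p = 0.00222). Bbs12, of the chaperonin that assembles the BBSome, had 36.2 ± 3.36 and 46.8 ± 0.926 (log2 0.37, adjusted p = 0.0324). Both fell from knockout to knock-in, by 0.70 (adjusted p = 0.00100) and 0.44 (adjusted p = 0.00646) on the log2 scale. Bbs7 lies at chr3:36472064-36512311 and Bbs12 at chr3:37211475-37220373, on the chromosome of Abca4 (chr3:121747377-121882979, mm9). The median log2 difference of the list in knockout was -0.05. The transition zone genes Cc2d2a and Ahi1 rose from knockout to knock-in, by 0.32 (adjusted p = 0.0234) and 0.24 (adjusted p = 0.0375). In RPE/choroid 0 of 42 tested were called in each genotype comparison, with the smallest p in knockout for Prpf6 (log2 0.20, adjusted p = 0.132).

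Of 13 other photoreceptor transcription factors, 0 were called against wild type in retina. Prdm1, which turns precursors away from the bipolar fate, had 18.7 ± 2.32 scaled CPM in knockout and 26.5 ± 3.08 in knock-in retina, a log2 difference of 0.51 (adjusted p = 0.0244). Its difference in knock-in against wild type was 0.35 (adjusted p = 0.262). The smallest p for knockout against wild type was that of Mef2c (log2 -0.15, adjusted p = 0.367).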

How the data were processed

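The submitters' processing notes name TopHat, Bowtie2, Cufflinks and the build mm9. Their versions, the annotation and any use of strand were not given in the sources used here. Per the file headers, the deposited tables give an expected count and an FPKM per gene and library, 1 FPKM per genotype, transcript FPKM and lengths, and the authors' p-value and q-value. Of the counts, 98.5% in retina and 98.4% in RPE/choroid are whole, and the rest were rounded. Counts were tested with edgeR 4.0.16 (R 4.3.3; quasi-likelihood, robust, TMM, filterByExpr), 9 libraries of a tissue together and all 18 for tissue differences. P-values were adjusted over all genes tested (14699 in retina, 15454 in RPE/choroid, 16222 jointly), and the models were checked on simulated data. Alternatives used DESeq2 1.42.0 and limma 3.58.1. Most genes named with their values in each library were called, had the smallest p or an extreme difference, are listed first in their role or lie at the floor. Others, among them Prom1 and the marker gene Gfap, were named outside this rule. The genes and lists were chosen with earlier results of these data known. Values on the scaled CPM scale, their overlaps and the percentages of retina were chosen after the FPKM of libraries numbered 2 were seen to stand apart. The labels number libraries 1 to 3 and the deposited files use 0 to 2, without a link. Deviations of same-numbered libraries from their group means correlated at -0.468 to 0.213 in retina and -0.118 to 0.243 in RPE/choroid. Those of differently numbered libraries correlated at -0.325 to 0.457 and at -0.284 to 0.275. Numbers were not taken as pairs. Where the rule would name 1 gene of the further dystrophy list in RPE/choroid, it is not reported here.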

Additional observations from a re-analysis of the deposited data

How the results depend on the processing

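Each comparison was counted under each setting tried. The number of called genes among the 43 stayed within 1.5 times the reported number in 131 such cases, and differed by more in 28. A reported 0 that stayed 0 was taken as unchanged, so the 131 include comparisons without any call. For knockout against wild type in retina (2 reported) there was 1 with a filter at a mean of 1 FPKM, 0 with limma at either FPKM pseudocount (1 or 0.1), 1 (Rpgr) with a lens term, and 0 to 2 over the fits without 1 library. For knock-in retina against wild type (0 reported) there was 1, Fscn2, with DESeq2, with no expression filter, with limma on log2(scaled CPM + 1) and without knockout 0 (range 0 to 1). Between knock-in and knockout in retina (2 reported) there were 0 with limma at either FPKM pseudocount, and 0 to 2 without 1 library. For knockout in RPE/choroid (0 reported) there was 1 with DESeq2, 1 with a rod term (Rom1, log2 -0.41, adjusted p = 0.0289), and 0 to 1 without 1 library (Kcnv2 without wild-type 2, Cdhr1 without knock-in 2). Between the tissues (41 reported) DESeq2 called 27 of the 29 that it gave an adjusted p. The difference between tissues of the knockout effect (0 reported) ranged from 0 to 3 without 1 library.

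Signs turned for Myo7a in knock-in retina without knock-in 0 (-0.15; range without 1 library -0.15 to 3.29), for Fscn2 between knock-in and knockout without knock-in 2 (0.017; range -0.080 to 0.017) and for Impg1 in knock-in RPE/choroid without wild-type 2 (0.59; range -3.18 to 0.59). The replicate block by table number left every count of calls as reported (2 for knockout against wild type in retina, 0 for knock-in, 2 between the mutants, 0 in RPE/choroid, 41 between tissues and 0 for both differences between tissues). The labels do not say that same-numbered libraries belong together. Those numbered 2 shared a ratio of FPKM to scaled CPM that stood apart for 36 of 40 genes in retina and 32 of 40 in RPE/choroid. On the count scale, 3 of 9 same-numbered pairs per tissue correlated above 0.1. Of differently numbered pairs, 5 of 18 in retina and 3 of 18 in RPE/choroid did so. Libraries numbered 2 stood apart for more genes on FPKM than on scaled CPM, and calls that limma lost on FPKM it made on scaled CPM. The cause of the FPKM difference was not tested. With 3 libraries per group and Ush1c, Cdh23 and Myo7a under 1 FPKM in wild-type retina, differences in those genes between genotypes of retina were not resolved.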
